A study of Sus scrofa with 20 samples.

Results

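The HOXB cluster is the HOX gene cluster that runs from HOXB1 at its 3′ end to HOXB13 at its 5′ end, and its expression was followed here across 4 skin sites of the pig. Its members were every row of the gene table whose pig Ensembl identifier maps to a symbol made of HOXB and a number, which gave 9 rows of 19280: HOXB1, HOXB2, HOXB3, HOXB4, HOXB5, HOXB6, HOXB7, HOXB8 and HOXB13. HOXB9 was not analysed here, so sums and shares below cover these 9 rows only. HOX genes encode homeodomain transcription factors that give cells their position along the head-to-tail axis of the embryo, and within a cluster the genes nearer the 3′ end are switched on earlier and reach further towards the head. Adult skin fibroblasts keep much of this positional code, while the face, whose connective tissue comes largely from cranial neural crest, is known as a region with little HOX expression.

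The study asked how the thick skin of the sole differs from other skin in gene expression. It used 5 wild-type female Yorkshire pigs, a domestic breed, aged 4, 5, 6, 7 and 8 months, with no treatment and no genetic change in any of them. Punch biopsies of whole skin were taken from 4 sites of each pig: the sole, which the labels call volar, the upper foot, which they call dorsal, the snout and the flank. Bulk RNA-seq was made from each, so each site has 5 libraries of 5 pigs, and the labels do not say whether a foot was a fore or a hind foot. In bulk tissue, fewer cells of a type and less RNA per cell cannot be told apart.

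The library numbers in the labels form 2 sets, and the site labels of the sets do not go together. The pigs of 4, 7 and 8 months gave the 12 libraries of the first set, whose sites are used as labelled. The pigs of 5 and 6 months gave the 8 libraries of the second set, whose sites were taken by expression match: the libraries labelled flank were read as sole, those labelled snout as upper foot, those labelled volar as snout and those labelled dorsal as flank. The match was recomputed without any HOX gene, so this version does not rest on the genes described here. It used expression of the same libraries, so it is not an independent check of the sites. Over the 2000 most variable other genes, 8 of 8 second-set libraries correlated best with the first-set site given by this reading, with Pearson r between 0.772 and 0.872. The nearest call was the pair of haired sites: the libraries read as flank had r of 0.845 and 0.811 with flank of the first set and 0.636 and 0.756 with its upper foot. Because second-set sites come from expression and not from a label, the first set alone, whose sites are the deposited ones, is given beside each comparison of the tested HOXB members. Tests of the other genes and lists below rest on all 20 libraries with the matched sites, with no first-set value beside them. With the deposited labels of all 20 libraries, edgeR's quasi-likelihood test called 0 genes and 0 HOXB members at an adjusted p under 0.05 in each of the 6 comparisons of sites, and 0 to 2 members a comparison had an unadjusted p under 0.05.

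The libraries held 34077821 to 66906420 counts, and the 9 HOXB rows together took 6079 counts over the 20 libraries. A single library could therefore not show a level below 3 counts, which came to 0.0394 to 0.138 CPM (counts per 1000000 counts, scaled by the TMM method to even out library composition), a floor that covers counting error only. Under the matched reading EN1, the patterning gene of the ventral limb, lay at 9.14 to 19.99 CPM in sole, against 0.278 to 3.36 CPM elsewhere. In the first set alone, by deposited labels, it lay at 9.14 to 14.75 CPM in sole and 0.278 to 1.64 CPM elsewhere. ALX1, a facial mesenchyme gene, lay at 18.2 to 19.8 CPM in snout and did not pass 0.424 CPM elsewhere. In the first set alone it lay at 18.2 to 18.7 CPM in snout and did not pass 0.329 CPM elsewhere. Second-set sites themselves came from expression, so these markers are no separate check of them. The summed counts of 6 fibroblast markers differed widely between sites, with 6205 to 37420 CPM in sole, 28500 to 82260 CPM in upper foot, 22060 to 50570 CPM in snout and 101500 to 229900 CPM in flank.

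All 7 HOXB genes with any count were lowest on average in snout and highest on average in flank, with both foot sites between them. The 9 rows together summed to 5.26 ± 1.07 CPM in sole, 5.47 ± 1.62 CPM in upper foot, 0.693 ± 0.395 CPM in snout and 12.45 ± 2.10 CPM in flank (SD, n = 5 pigs each). HOXB1, the gene at the 3′ end that marks a single segment of the embryonic hindbrain, had 0 counts in 20 of 20 libraries. HOXB13, the gene at the 5′ end that acts in the tail, hindgut and prostate, also had 0 counts in 20 of 20 libraries. Of the other 7 members, HOXB2 to HOXB7 passed the filter on low counts and were tested, and HOXB8 did not pass it. Over all 20 libraries, 6 of these 6 tested members differed between sites in the test for any site (edgeR quasi-likelihood, Benjamini-Hochberg adjusted p from 2.8e-07 for HOXB4 to 0.041 for HOXB5), where 56.2% of all genes tested did. Values are counts not corrected for gene length, so levels are compared between sites and not between genes.

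**Figure D1:**
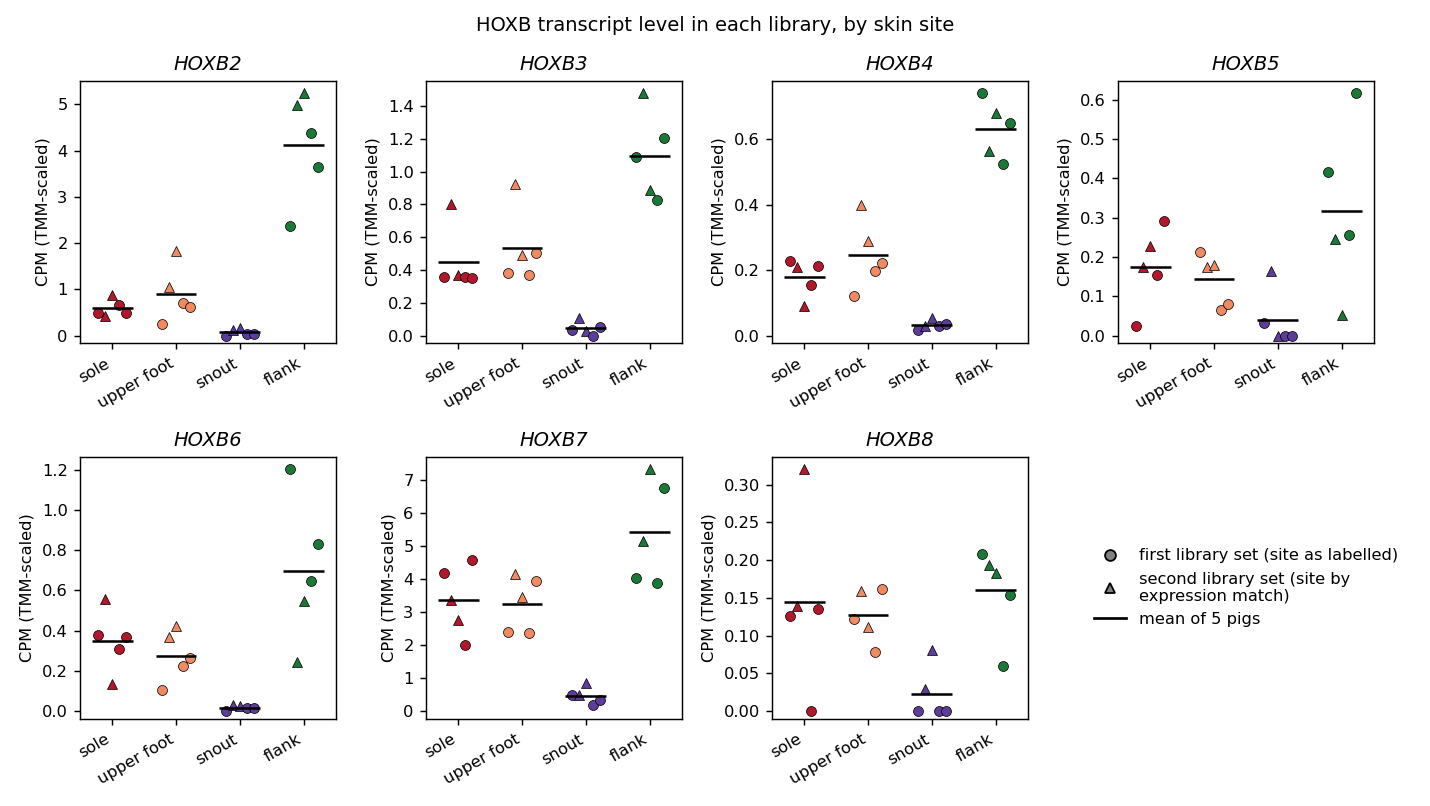
Level of each HOXB member with counts (CPM, linear axis from 0, with its own range for each gene) in sole, upper foot, snout and flank; each point is a library, circles are the first set with its deposited labels, triangles the second set with sites by expression match, and lines are the means of 5 pigs. For HOXB2 the flank libraries lie at 2.36 to 5.25 CPM, above every library of the other sites, and the snout libraries lie at 0 to 0.162 CPM.

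HOXB2, a gene of the 3′ part of the cluster that patterns the hindbrain and its facial nerve, had the largest ratio of flank to snout among the members with counts. In sole it stood at 0.481, 0.419, 0.871, 0.669 and 0.485 CPM in the pigs of 4, 5, 6, 7 and 8 months. In upper foot it stood at 0.259, 1.05, 1.83, 0.7096 and 0.627 CPM in the same order of pigs. In snout it stood at 0, 0.119, 0.162, 0.0278 and 0.0343 CPM, against 2.36, 4.98, 5.25, 4.38 and 3.66 CPM in flank. Flank was thus the highest site and snout the lowest in each of the 5 pigs, with no overlap of flank with any other site, while sole and upper foot overlapped. The means were 0.585 ± 0.185 CPM in sole, 0.8955 ± 0.594 CPM in upper foot, 0.0686 ± 0.0686 CPM in snout and 4.125 ± 1.16 CPM in flank (SD, n = 5). The snout values rest on 18 counts over 5 libraries, and 3 of those libraries had fewer than 3 counts.

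HOXB3, the next gene, which also patterns the hindbrain, followed the same order at a narrower range. It stood at 0.349 to 0.804 CPM in sole, 0.368 to 0.924 CPM in upper foot, 0 to 0.104 CPM in snout and 0.825 to 1.48 CPM in flank, with medians of 0.360, 0.491, 0.0318 and 1.09 CPM. The flank libraries lay above every sole library, while the highest upper foot library, that of the 5-month pig, reached into the flank range.

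HOXB4, known for expanding blood stem cells when raised experimentally, rested on fewer counts and followed the same order. In sole it stood at 0.228, 0.210, 0.0917, 0.154 and 0.214 CPM, and in upper foot at 0.122, 0.398, 0.290, 0.197 and 0.223 CPM. In snout it stood at 0.0159, 0.0297, 0.0541, 0.0278 and 0.0343 CPM, against 0.741, 0.564, 0.679, 0.525 and 0.648 CPM in flank. Flank was highest and snout lowest in each of the 5 pigs, and the flank range met none of the others. Each snout library had only 1 or 2 HOXB4 counts, which is under the floor of 3 counts per library.

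HOXB5 and HOXB6 lie in the middle of the cluster, which is active in the trunk and the lateral plate of the embryo. HOXB5 was the most scattered member, at 0.0253 to 0.291 CPM in sole, 0.0657 to 0.214 CPM in upper foot, 0 to 0.163 CPM in snout and 0.0522 to 0.617 CPM in flank. Its ranges overlapped for each pair of sites, and 3 of the 5 snout libraries had no HOXB5 count. HOXB6 stood at 0.138 to 0.559 CPM in sole, 0.107 to 0.424 CPM in upper foot, 0 to 0.0297 CPM in snout and 0.247 to 1.20 CPM in flank. Its flank range overlapped both foot sites, and snout lay below every other library with 5 counts in all.

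HOXB7, a gene expressed in mesenchymal cells and often raised in tumours, was the member with the most counts behind it. In sole it stood at 4.18, 3.36, 2.75, 2.01 and 4.58 CPM, and in upper foot at 2.38, 4.14, 3.44, 2.37 and 3.92 CPM. In snout it stood at 0.477, 0.505, 0.866, 0.181 and 0.326 CPM, against 4.03, 5.14, 7.33, 3.88 and 6.74 CPM in flank. Snout lay below every library of the other sites, whereas flank overlapped both foot sites, and in the 4-month pig sole was above flank. The means were 3.37 ± 1.04 CPM in sole, 3.25 ± 0.840 CPM in upper foot, 0.471 ± 0.256 CPM in snout and 5.43 ± 1.56 CPM in flank (SD, n = 5).

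HOXB8, which acts in myeloid cells and spinal circuits of the mouse, had 106 counts in all and averaged 0.145 ± 0.114 CPM in sole, 0.127 ± 0.0348 CPM in upper foot, 0.0222 ± 0.0354 CPM in snout and 0.160 ± 0.0592 CPM in flank. Sole, upper foot and flank overlapped, and flank was the highest site in 2 of 5 pigs. Without the filter on low counts, HOXB8 was lower in snout than in flank by a log2 fold change of -2.96 ± 0.84 (SE, edgeR adjusted p = 0.016), and its log2 fold change of sole over flank was -0.21 ± 0.72 (adjusted p = 0.85).

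Snout against flank gave the largest differences, with 6 of 6 tested members lower in snout, where 11.8% of all genes tested were lower. The log2 fold changes of snout over flank were -5.96 ± 0.64 for HOXB2 (SE, n = 5 pigs a site; edgeR adjusted p = 2e-06), -4.58 ± 0.53 for HOXB3 (adjusted p = 4.5e-06) and -4.25 ± 0.38 for HOXB4 (adjusted p = 2.34e-07). They were -2.87 ± 0.83 for HOXB5 (adjusted p = 0.016), -5.17 ± 0.60 for HOXB6 (adjusted p = 4.3e-06) and -3.55 ± 0.36 for HOXB7 (adjusted p = 1.03e-06). The median over these members was -4.41, against -0.02 over all genes tested. In the first set alone 6 of 6 were again lower, where 5.46% of all genes tested were, with log2 fold changes of -7.24 for HOXB2, -5.10 for HOXB5 and -3.89 for HOXB7. HOXB5 lost its call without the 4-month pig (adjusted p = 0.0517), the 8-month pig (0.103) or the 7-month pig (0.0636), and its highest snout library, of the 5-month pig, carried 11 of its 13 snout counts.

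Both foot sites also stood above snout. In sole over snout, 5 of 6 tested members were higher, where 16.9% of all genes tested were higher: HOXB2 by 3.14 ± 0.62, HOXB3 by 3.28 ± 0.53, HOXB4 by 2.47 ± 0.40, HOXB6 by 4.202 ± 0.60 and HOXB7 by 2.86 ± 0.35 on the log2 scale, with edgeR adjusted p from 7.9e-06 for HOXB7 to 0.00065 for HOXB2. In upper foot over snout, 5 of 6 were higher, where 7.68% of all genes tested were: HOXB2 by 3.76 ± 0.61, HOXB3 by 3.54 ± 0.52, HOXB4 by 2.89 ± 0.38, HOXB6 by 3.84 ± 0.60 and HOXB7 by 2.81 ± 0.35, with adjusted p from 1.62e-05 for HOXB7 to 0.00021 for HOXB2. The first set alone gave 5 higher members in sole over snout, where 5.71% of all genes tested were higher, and 5 in upper foot over snout, where 2.92% were. HOXB5 had log2 fold changes of 2.00 ± 0.87 in sole over snout (adjusted p = 0.08) and 1.71 ± 0.85 in upper foot over snout (adjusted p = 0.18). Without the 5-month snout library, labelled volar, these became 4.00 (adjusted p = 0.00396) and 3.71 (adjusted p = 0.0104).

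In sole against flank, the 3′ genes HOXB2, HOXB3 and HOXB4 were lower in sole. HOXB5, HOXB6 and HOXB7 also had negative log2 fold changes but did not pass, and differences between members were not tested. That is 3 of 6 tested members lower, where 27.7% of all genes tested were lower, and 0 of 6 higher, where 24.2% of all genes were. The log2 fold changes of sole over flank were -2.83 ± 0.53 for HOXB2 (SE, edgeR adjusted p = 0.000214), -1.30 ± 0.44 for HOXB3 (adjusted p = 0.019) and -1.77 ± 0.33 for HOXB4 (adjusted p = 0.000195). They were -0.87 ± 0.76 for HOXB5 (adjusted p = 0.36), -0.97 ± 0.45 for HOXB6 (adjusted p = 0.082) and -0.68 ± 0.32 for HOXB7 (adjusted p = 0.083). In the first set alone the same 3 members were called, where 16% of all genes tested were lower, at -2.67 ± 0.52 for HOXB2 (adjusted p = 0.0032), -1.54 ± 0.52 for HOXB3 (adjusted p = 0.043) and -1.67 ± 0.40 for HOXB4 (adjusted p = 0.0097). With the pig as a block HOXB7 joined them, at -0.67 ± 0.26 (adjusted p = 0.0367). HOXB3 lost its call without the 4-month pig (adjusted p = 0.0594), the 8-month pig (0.0854) or the 6-month pig (0.0625), and HOXB6 gained one without the 5-month flank library, labelled dorsal (-1.18, adjusted p = 0.0333).

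In upper foot against flank, HOXB2 and HOXB4 were lower in upper foot, which is 2 of 6 tested members, where 0.72% of all genes tested were lower. The log2 fold changes of upper foot over flank were -2.21 ± 0.51 for HOXB2 (SE, edgeR adjusted p = 0.038) and -1.35 ± 0.31 for HOXB4 (adjusted p = 0.0389). With the pig as a block they were -2.40 ± 0.37 for HOXB2 (adjusted p = 0.0041) and -1.40 for HOXB4 (adjusted p = 0.033). In the first set alone, with 3 pigs, 0 of 6 members were lower in edgeR, where 0.0523% of all genes tested were, 4 of 6 had an unadjusted p under 0.05, and HOXB2 stood at -2.70 ± 0.52 (adjusted p = 0.0972). These 2 calls were fragile: HOXB2 lost its call on leaving out any of 8 single libraries, namely all 5 labelled dorsal (of the 4-, 5-, 6-, 7- and 8-month pigs), those labelled flank of the 7- and 8-month pigs, and the one labelled snout of the 5-month pig, with adjusted p between 0.0645 and 0.116. HOXB4 lost its call in 21 of 33 alternatives with the matched sites (adjusted p over them from 0.00996 to 0.807). HOXB3 at -1.04 ± 0.43, HOXB5 at -1.16 ± 0.74, HOXB6 at -1.33 ± 0.45 and HOXB7 at -0.74 ± 0.32 did not pass (adjusted p from 0.19 to 0.61).

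No member passed the test between sole and upper foot. In edgeR 0 of 6 tested members passed, and 0 of 6 had an unadjusted p under 0.05, where 45.6% of all genes tested passed in either direction. DESeq2 and limma-voom also called 0 of 6, where they called 48.5% and 44.1% of all genes. The log2 fold changes of sole over upper foot were -0.62 ± 0.51 for HOXB2, -0.27 ± 0.44 for HOXB3, -0.42 ± 0.33 for HOXB4, 0.29 ± 0.78 for HOXB5, 0.36 ± 0.46 for HOXB6 and 0.06 ± 0.32 for HOXB7 (SE; adjusted p from 0.33 to 0.90). In the first set alone 0 of 6 passed and 0 of 6 had an unadjusted p under 0.05, with HOXB2 at 0.03 ± 0.51, HOXB4 at 0.14 ± 0.41 and HOXB6 at 0.84 ± 0.50. With the pig as a block 0 of 6 passed, with HOXB2 at -0.37 ± 0.38, HOXB3 at -0.25 ± 0.32 and HOXB4 at -0.37 ± 0.34 (adjusted p from 0.384 to 0.534). Within pigs HOXB3 was lower in sole in 5 of 5, HOXB2 and HOXB4 in 4 of 5, and HOXB6 was higher in sole in 4 of 5. With standard errors of 0.32 to 0.78 over all libraries, these values do not show that the sites are alike.

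**Figure D2:**
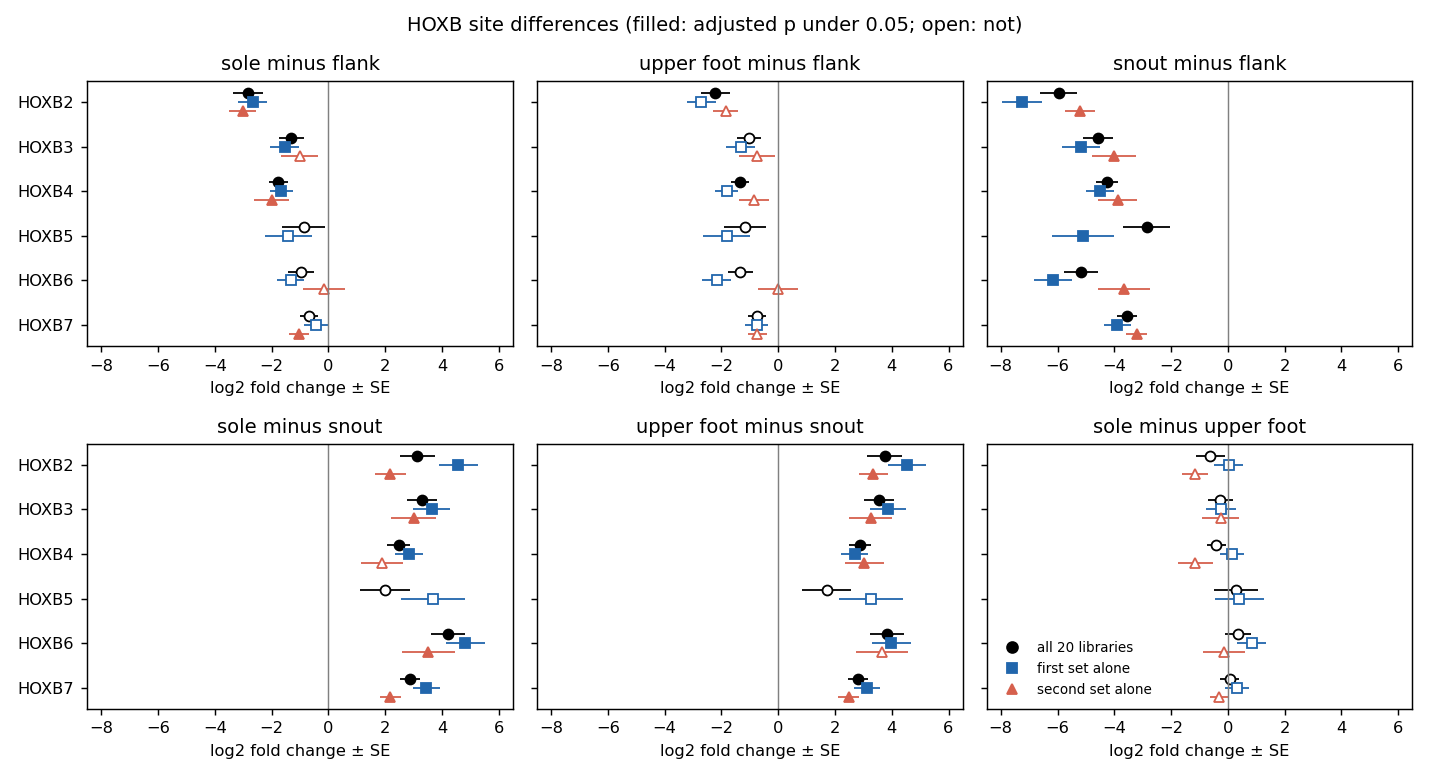
Log2 fold change with its standard error for HOXB2 to HOXB7 in the 6 comparisons of sites, from edgeR over all 20 libraries (circles), the first set alone (squares) and the second set alone (triangles, HOXB5 not tested); filled points pass an adjusted p under 0.05. Over all 20 libraries the snout over flank values run from -5.96 to -2.87, and in sole over upper foot no point is filled.

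The sites also differed in how the cluster's counts were shared among its members. HOXB2 stood at 14.2% of its flank mean in sole and 21.7% in upper foot, while HOXB7 stood at 62.2% and 59.9%. The members between them in the cluster were at 28.4% to 55.1% of flank in sole and 39.0% to 48.7% in upper foot, and HOXB8 at 90.5% and 79.3%. In snout the range was 1.66% for HOXB2 to 13.9% for HOXB8, with HOXB7 at 8.68%. This order along the cluster was not smooth, since HOXB4 lay below HOXB3 in sole, at 28.4% and 40.8%, and the sets differed: in sole HOXB5 was at 36.5% of flank in the first set and 135% in the second.

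**Figure D3:**
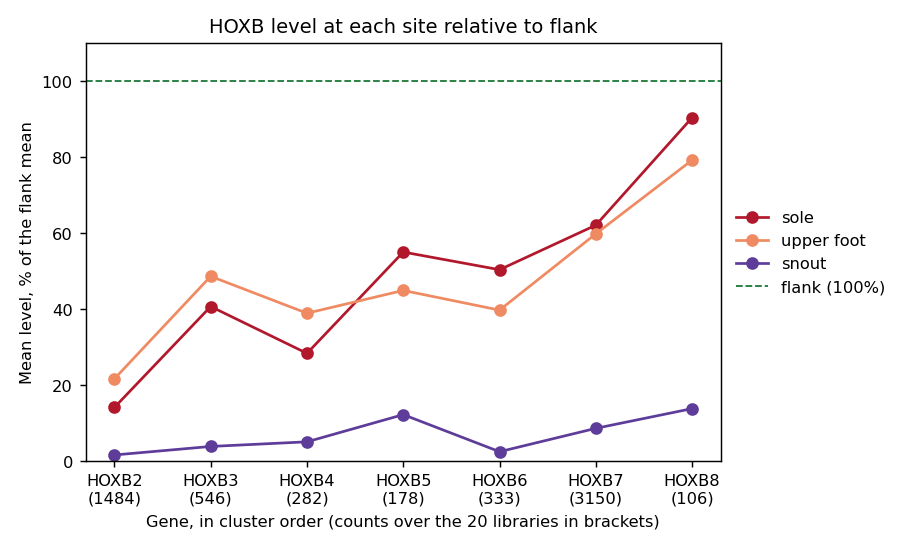
Mean level of HOXB2 to HOXB8 in sole, upper foot and snout as a percentage of the mean in flank, with the members in their order along the cluster from 3′ to 5′, the flank level as a dashed line and the counts of each gene over 20 libraries in brackets. HOXB2 is at 14.2% in sole, 21.7% in upper foot and 1.66% in snout, and HOXB7 at 62.2%, 59.9% and 8.68%.

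The ratio of HOXB2 to HOXB7 counts within a library shows the same with each library as its own scale. For every 100 HOXB7 counts there were 11.5, 12.5, 31.7, 33.3 and 10.6 HOXB2 counts in sole of the pigs of 4, 5, 6, 7 and 8 months, and 10.9, 25.4, 53.25, 30 and 16.0 in upper foot. There were 0, 23.5, 18.75, 15.4 and 10.5 in snout, against 58.6, 96.9, 71.5, 112.7 and 54.2 in flank. The 5 flank libraries lay above all 15 others, with the 6-month upper foot library closest to them. This pair of genes was chosen after the values were seen, and the ratio was not tested. HOXB2 made up 12.0% of the cluster's counts in sole, 15.5% in upper foot, 8.79% in snout and 33.0% in flank, and HOXB7 made up 63.1%, 60.3%, 70.2% and 42.9%.

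The fibroblast markers were lower, as HOXB members were, in sole and snout against flank, and did not follow the HOXB members in sole against snout or upper foot. Of all genes tested, 27.7% were lower in sole over flank and 11.8% in snout over flank. The shares lower were 22.6% in sole over upper foot and 19.1% in sole over snout. In upper foot over flank only 1.16% passed in either direction, so 0 passing markers there does not show an absence of difference. In sole over flank, 6 of 6 fibroblast markers were lower with a median log2 fold change of -2.82, led by DCN at -2.87 ± 0.35 (SE, edgeR adjusted p = 2.11e-06) and COL1A2 at -3.63 ± 0.49 (adjusted p = 6.51e-06), which encode a matrix proteoglycan and a collagen chain. In snout over flank 5 of 6 were lower (median -1.69), in upper foot over flank 0 of 6 passed (median -1.16), and in sole over upper foot, where no HOXB member passed, 6 of 6 were lower (median -1.71). In sole over snout, where 5 HOXB members were higher, 4 of 6 fibroblast markers were lower (median -1.10). The keratinocyte markers with rows, 3 of 5, summed to 248900 to 582000 CPM in sole, against 10160 to 17820 CPM in flank. Skeletal muscle markers, 8 of 12 with rows, summed to 8.19 to 7999 CPM in snout, against 37.1 to 156 CPM in flank. Adipocyte markers were lower in 4 of 4 cases in sole over flank (median log2 fold change -5.89) and in snout over flank (median -2.98), and 0 of 4 passed in upper foot over flank. Smooth muscle markers were lower in 3 of 3 cases in sole over flank and 2 of 3 in snout over flank, hair markers in 4 of 4 and 3 of 4, and immune markers in 4 of 5 and 1 of 5. Of 3 endothelial markers 0 passed in either comparison, where 51.9% and 25.5% of all genes passed in either direction. The part of cell composition in the HOXB differences was not tested.

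PDGFRA, a receptor gene of dermal fibroblasts, gives a second scale for the same counts, chosen after the values were seen and used with no test. It stood at 25.9 to 66.0 CPM in sole, 103 to 170 CPM in upper foot, 62.7 to 103 CPM in snout and 86.4 to 200 CPM in flank. For every 1000 PDGFRA counts, HOXB2 had 7.28 to 25.9 counts in sole, 1.65 to 12.2 in upper foot, 0 to 2.05 in snout and 11.8 to 50.7 in flank. On this scale sole and flank overlapped for HOXB2, while snout remained below every sole and flank library. HOXB7 had 63.2 to 107 counts per 1000 PDGFRA counts in sole, 15.1 to 38.2 in upper foot, 2.64 to 10.9 in snout and 20.2 to 58.5 in flank. Here sole lay above every flank library for HOXB7, the opposite direction to its level in CPM, while snout stayed lowest. HOXB3 and HOXB4 had means in sole of 12.4 ± 8.13 and 4.53 ± 1.72 per 1000 PDGFRA counts, against 8.50 ± 2.14 and 4.92 ± 1.06 in flank (SD, n = 5). HOXB5, HOXB6 and HOXB8 had means of 4.76 ± 2.49, 9.23 ± 5.63 and 3.61 ± 3.49 in sole, against 2.48 ± 1.79, 5.33 ± 2.36 and 1.17 ± 0.305 in flank. The mean difference of sole from flank thus turned direction on the PDGFRA scale for 5 of the 7 members with counts, all but HOXB2 and HOXB4. Those of upper foot and snout from flank kept theirs for 7 of 7. Both counts hold for PDGFRA only, and no other marker was used as a scale. PDGFRA averaged 42.6 CPM in sole, 138 CPM in upper foot and 135 CPM in flank. Dividing by it raises every gene in sole against flank, and changes upper foot against flank little. The share of all genes that turned direction was not counted, so neither count is a result particular to HOXB members. DCN and COL1A2 fell further than PDGFRA in sole over flank, at -2.87 and -3.63. The 6 fibroblast markers had a median of -1.16 in upper foot over flank.

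**Figure D4:**
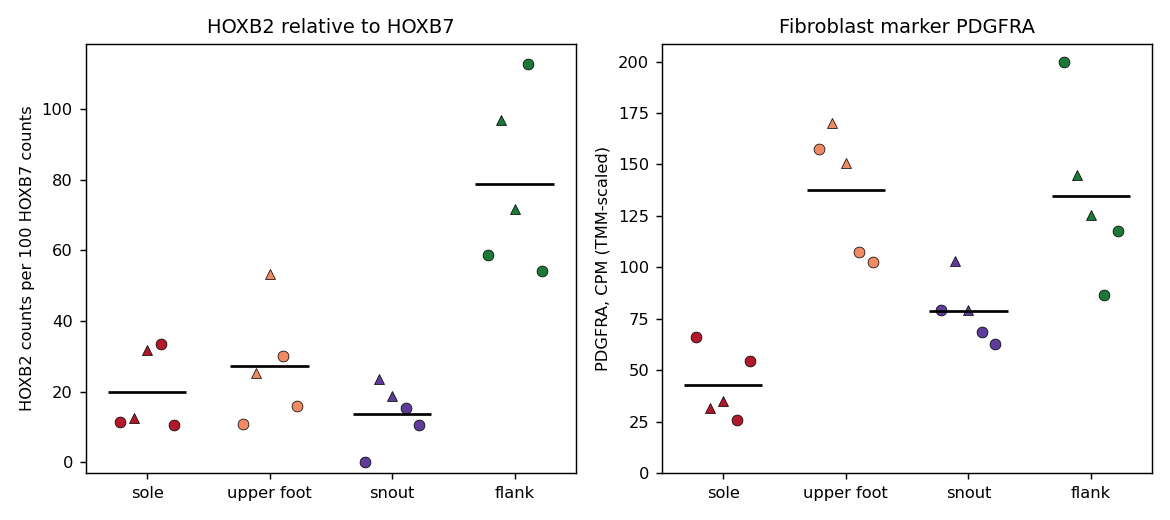
HOXB2 counts per 100 HOXB7 counts (left) and the level of the fibroblast marker PDGFRA in CPM (right) by site, with 1 point a library (circles first set, triangles second set) and lines at the means of 5 pigs. HOXB2 per 100 HOXB7 counts lies at 10.6 to 33.3 in sole and 54.2 to 112.7 in flank, and PDGFRA at 25.9 to 66.0 CPM in sole and 86.4 to 200 CPM in flank.

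Site differences of several members differed in size between the library sets, but none passed a test of that difference. In a fit with a site by set interaction, edgeR called 0 of 6 members (adjusted p from 0.471 to 0.970) and 0 of 6 had an unadjusted p under 0.05, where 0.0655% of all genes tested were called, and with RLE scaling (size factors by the median of ratios) it also called 0 of 6. The snout over flank log2 fold change was less negative in the second set than in the first by 4.33 for HOXB5, 2.46 for HOXB6 and 2.05 for HOXB2, and with 2 and 3 pigs a set the test does not show that the sets are alike. In upper foot over flank HOXB6 was at -0.00646 in the second set and -2.17 in the first. In the second set alone, with 2 pigs and HOXB5 not tested, HOXB2 was at -3.01 ± 0.47 in sole over flank (adjusted p = 0.0023) and -5.20 in snout over flank (adjusted p = 0.0018). HOXB3 was at -1.01 in sole over flank and did not pass there (adjusted p = 0.249), while HOXB7 passed at -1.04 ± 0.34 (adjusted p = 0.042).

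The other HOX clusters shared the low level in snout. In snout over flank, 8 of 8 tested HOXA genes and 9 of 9 HOXC genes were lower, with median log2 fold changes of -6.78 and -8.57. Of the HOXD genes 4 of 8 were lower (median -1.27), where 11.8% of all genes tested were. Between sole and upper foot, where no HOXB member passed, 4 of 8 HOXA genes, 4 of 9 HOXC genes and 1 of 8 HOXD genes were lower in sole, and 1 HOXC gene was higher. Of all genes tested, 22.6% were lower and 23% higher there. In sole over flank, 5 of 8 HOXA, 6 of 9 HOXC and 3 of 8 HOXD genes were lower. So were 3 of 6 tested HOXB members, where 27.7% of all genes tested were lower. In the same comparison 2 of 8 HOXA, 3 of 9 HOXC and 2 of 8 HOXD genes were higher, near the 24.2% of all genes tested. No HOXB member was higher there. Differences between clusters were not tested.

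HOX proteins bind DNA with PBX, MEIS and PKNOX partners, and 7 of 9 such genes had a row and were tested. In sole over flank 5 were higher and 2 lower, where 24.2% and 27.7% of all genes were, led by PBX3 at 1.01 ± 0.17 (SE, edgeR adjusted p = 8.14e-05) and PKNOX2 at 1.04 ± 0.20 (adjusted p = 0.000246). In upper foot over flank, where 1.16% of all genes passed, only MEIS1 did, at -1.27 ± 0.21 (adjusted p = 0.0039). Its level was 36.7 ± 11.8 CPM in sole, 10.0 ± 1.24 CPM in upper foot, 13.9 ± 2.83 CPM in snout and 24.2 ± 6.09 CPM in flank. In snout over flank 2 were higher and 2 lower, where 13.6% and 11.8% of all genes were, with PKNOX2 at 1.65 ± 0.20 (adjusted p = 7.8e-06). The cofactor genes therefore did not share 1 direction with the HOXB members.

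Retinoic acid, made from vitamin A, switches on 3′ HOX genes in the embryo. Of 18 genes of its synthesis, breakdown and receptors, 16 were tested, and in sole over flank 2 were higher and 5 lower, where 51.9% of all genes tested passed in either direction, led by the synthesis enzymes ALDH1A3 at -2.39 ± 0.29 (SE, edgeR adjusted p = 2.33e-06) and ALDH1A1 at -4.00 ± 0.50 (adjusted p = 2.9e-06). In snout over flank, where 25.5% of all genes passed, 1 was higher and 1 lower: ALDH1A2, another such enzyme, was at 2.55 ± 0.35 (adjusted p = 3.37e-05) and ALDH1A1 at -1.84 ± 0.45 (adjusted p = 0.00569). ALDH1A2 stood at 4.88 to 12.9 CPM in snout, against 0.810 to 2.70 CPM in flank. In upper foot over flank, 0 of 16 passed, where 1.16% of all genes did.

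Polycomb and Trithorax proteins keep HOX clusters silent or active. Of 22 listed genes of chromatin regulators of HOX clusters, these proteins among them, 20 were tested. In sole over flank 5 were higher and 4 lower, a share below the 51.9% of all genes that passed, with EZH2, the enzyme that places the silencing mark H3K27 methylation, at 1.11 ± 0.13 (SE, edgeR adjusted p = 9.3e-07). In snout over flank 3 were higher and 1 lower, where 25.5% of all genes passed, with EZH2 at 0.88 ± 0.12 (adjusted p = 4.33e-05). In upper foot over flank, where 1.16% of all genes passed, 0 of 20 did.

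In the RefSeq gene table for the pig assembly Sscrofa11.1, used for gene order only, SKAP1 flanks the cluster beyond HOXB1 and TTLL6 beyond HOXB13. SKAP1, an adaptor gene of T cells, had 23 counts in sole, 31 in upper foot, 14 in snout and 24 in flank, summed over 5 libraries each. TTLL6, which modifies the tubulin of cilia, had 0 counts in sole, 26 in upper foot, 1 in snout and 138 in flank. Its mean level in sole was at least 30.7-fold lower than the 0.510 CPM of flank, taking 3 counts over the 5 sole libraries as the floor, and the edgeR adjusted p was 0.000185 for sole over flank and 0.000398 for snout over flank. Of 15 listed neighbours 11 were tested, and in sole over flank 5 were higher and 3 lower, where 24.2% and 27.7% of all genes were. In upper foot over flank 0 passed, where 1.16% of all genes did. In snout over flank 1 was higher and 3 lower, where 13.6% and 11.8% of all genes were.

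Across the 20 libraries, the gene whose log2 level followed HOXB2 most closely was AFF2, a member of a family of transcription elongation factors, with Pearson r = 0.946, out of 11956 genes with a mean of at least 1 CPM. HOXC6 (0.938), HOXC8 (0.928), HOXC9 (0.902) and HOXC5 (0.898) came next. AFF2 stood at 5.73 ± 2.17 CPM in sole, 9.22 ± 2.83 CPM in upper foot, 2.64 ± 0.521 CPM in snout and 34.5 ± 11.4 CPM in flank (SD, n = 5). AFF2 was also nearest to HOXB3 (0.928) and HOXB4 (0.933), while HOXC4 was nearest to HOXB6 (0.852), HOXC9 to HOXB7 (0.915) and STK10 to HOXB5 (0.780). Among the tested members themselves, r ran from 0.571 for HOXB2 with HOXB5 to 0.928 for HOXB2 with HOXB4. These are descriptions over libraries that share pigs, sites and depth, so they carry no test.

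The feet differed between pigs in HOXA9 and in TBX4, a hind limb gene, and HOXB7 did not split the pigs in the same way. HOXA9 stood at 34.1, 24.4, 1.28, 24.1 and 1.88 CPM in sole of the pigs of 4, 5, 6, 7 and 8 months, and at 29.6, 23.6, 5.18, 24.1 and 3.26 CPM in upper foot. The 6- and 8-month pigs were thus low at both foot sites. TBX4 stood at 4.23, 3.43, 1.79, 2.55 and 1.82 CPM in sole of the same pigs and at 3.78, 4.21, 1.27, 2.85 and 0.971 CPM in upper foot, again lowest in those of 6 and 8 months. TBX5, a forelimb gene, stood at 3.37, 0.699, 2.52, 1.72 and 5.34 CPM in sole, which did not set those pigs apart, and at 4.65, 5.08, 8.24, 5.24 and 6.80 CPM in upper foot, where they were highest. HOXB7 in sole of the 6- and 8-month pigs, at 2.75 and 4.58 CPM, lay on either side of the 4-month value of 4.18 CPM, and in upper foot, at 3.44 and 3.92 CPM, they lay between the 4-month and 5-month values of 2.38 and 4.14 CPM. No groups were formed from these values and no test was made.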

How the data were processed

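Per the labels' protocols, 20 punch biopsies gave TruSeq stranded libraries of mRNA. The authors deposited estimated counts per Ensembl gene. Per the submitters' processing notes, Salmon was used. The sources used here give no Salmon version, genome build, annotation or strand setting. It is therefore not known whether reads of overlapping antisense transcripts in the cluster were kept apart. Of the values, 42.2% were not whole and all were rounded. Of 19280 identifiers 14821 matched a symbol. No build is named, so coordinates are left out.

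Tests were edgeR 4.0.16 quasi-likelihood tests (robust, TMM, count minimum 10, total minimum 15) in R 4.3.3 on all 20 libraries by matched site (15275 genes, 16 residual degrees of freedom), with Benjamini-Hochberg adjustment over all genes tested and a threshold of 0.05. Members, lists, tests and the site match were chosen with earlier results of these data known. Alternatives were the deposited labels, each set alone (15302 and 15280 genes), a pig block, RLE and upper-quartile scaling, no filter, DESeq2 1.42.0, limma-voom (limma 3.58.1), and each pig or library left out. The scripts were tested on simulated data.

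The pigs pair the libraries, since the labels give the same animal. Deviations from site means, taken within each library set, correlated between libraries of 1 pig with medians of 0.101 to 0.323. The 2 pigs of the second set deviate from their shared means as mirror images, so both have the same median, 0.304. No correlation between libraries of different pigs was set beside these values, so they are not a test of the pairing. Likeness used log2(CPM + 0.5). Named genes were every HOXB row, the 5 genes most like HOXB2, the 1 most like each other tested member, and up to 2 genes per list and comparison with the smallest adjusted p. A gene this rule names is not reported here. The HOXB2 to HOXB7 and PDGFRA ratios, the limb genes and the levels given for MEIS1, ALDH1A2, SKAP1 and TTLL6 were chosen after their values were seen.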

Additional observations from a re-analysis of the deposited data

Results flagged for a closer look

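Of 24 sets of 5 values, for 6 tested members at 4 sites, 3 held a value set far apart from the other 4 by Dixon's criterion for 5 samples (the gap to the nearest value, as a share of the range, past its critical value). Chance gives about 1 in 20 for independent, normally distributed values. Low counts from libraries shared between the sets need not meet that, so 3 of 24 is not shown to be an excess. HOXB3 in sole was highest at 0.8037 CPM in the 5-month library, labelled flank, against 0.349 to 0.367 CPM in the others (0.962 of the range). HOXB3 in upper foot was highest at 0.924 CPM in the 5-month library, labelled snout, against 0.368 to 0.506 CPM in the others (0.752 of the range). HOXB5 in snout was highest at 0.1633 CPM in the 5-month library, labelled volar, against 0 to 0.0318 CPM in the others (0.805 of the range). All 3 libraries are of the 5-month pig. By the same criterion its flank library did not stand apart for HOXB3, at 1.48 CPM, or for HOXB5, at 0.247 CPM. HOXB3 was still highest in the 5-month pig at every site, with 0.104 CPM in snout. In flank the next highest HOXB3 value was 1.20 CPM, in the 8-month pig.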

How the results depend on the processing

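Leaving aside the deposited labels, the log2 fold changes of the members in the 5 comparisons other than sole over upper foot kept their direction in each of 985 values from these alternatives, with 43 calls lost and 12 gained. The deposited labels of all 20 libraries gave 0 genes and 0 members in every comparison and in the test for any site, and reversed upper foot over flank for HOXB2 (0.00299) and HOXB7 (0.0217), sole over snout for HOXB2 (-0.61), HOXB3 (-0.32) and HOXB4 (-0.17), and sole over upper foot for HOXB5 (-0.0319), HOXB6 (-0.30) and HOXB7 (-0.80). Sole over upper foot, where no member passed, also reversed in the first set alone for HOXB2 (0.0327) and HOXB4 (0.14), in the second set alone for HOXB6 (-0.14) and HOXB7 (-0.31), and under upper-quartile scaling, which moves the median of all genes to -0.15, for HOXB7 (-0.0694). The cause was not tested.

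The first set alone called 5032 genes for sole over flank, 20 for upper foot over flank (with 0 members), 2024 for snout over flank, 1768 for sole over snout, 1212 for upper foot over snout, 3694 for sole over upper foot and 4649 for any site, against 7926, 177, 3888, 5506, 2955, 6964 and 8577 with all libraries. The second set alone called 6 genes and 0 members for upper foot over flank, 1981 genes for snout over flank and 1551 for upper foot over snout. For upper foot over flank, the replicate block by pig called 334 genes and DESeq2 503, and without the filter on low counts 1 member was lower. The block changed no other HOXB call than that of HOXB7 in sole over flank.

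Leaving out 1 pig or library gave 2 to 4 members lower in sole over flank (6544 to 8097 genes), 0 to 2 in upper foot over flank (52 to 262) and 5 to 7 in snout over flank (2733 to 4133). It gave 5 to 7 members higher in sole over snout (3634 to 6110) and in upper foot over snout (1829 to 3129), 5 to 7 members for any site (6677 to 8760) and 0 members for sole over upper foot (5451 to 7226). A count of 7 includes HOXB8, which passed the filter on low counts in those fits only. For sole over upper foot, log2 fold changes ran from -0.13 to 0.20 for HOXB7, -0.17 to 0.78 for HOXB5 and -0.58 to 0.0285 for HOXB3. Counts under 3 in snout limit each fold against it except those of HOXB7, which had 13 to 34 counts in each snout library.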
